A study of Mus musculus with 10 samples.

Results

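The expression of 10 genes that mark oligodendrocyte precursor cells and cells newly committed to the oligodendrocyte fate was examined in the prefrontal cortex of young mice lacking 1 functional copy of Arid1b. The genes were taken by symbol (Pdgfra, Cspg4, Olig1, Olig2, Sox10, Gpr17, Bmp4, Neu4, Enpp6 and Bcas1), and all 10 were found among the 18216 genes of the table. RNA-seq of poly-A RNA, 1 library per mouse, had been made at postnatal day 10 from 5 male Arid1b heterozygotes (HT1 to HT5) and 5 male wild types (WT1 to WT5) of the C57BL/6N strain. The labels name no treatment for either group. Arid1b encodes a subunit of the BAF chromatin-remodelling complex, and its exon 5 had been given a protein-truncating change by CRISPR/Cas9 in the germline, so that all cell types of the HT mice carry it. The mutant line is a single CRISPR allele, and litter and batch are not given in the labels.

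Oligodendrocytes, the myelin-forming cells of the brain, arise from dividing precursors that carry the PDGF receptor alpha and the NG2 proteoglycan. Precursors that leave the cell cycle pass through a short committed stage, marked by the receptor GPR17, before they become premyelinating cells and then wrap axons. In the mouse cortex this sequence is under way during the early postnatal weeks, and the BAF ATPase BRG1 is known to be recruited by OLIG2 during it. In bulk tissue, fewer cells of a type and less RNA per cell cannot be told apart.

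The deposited values are gene-level read estimates divided by size factors and are called normalised counts here. The number of reads behind them is unknown, and precision was judged by the spread between mice. Totals ranged from 31106330 to 32106791 normalised counts per mouse, and correlations between mice on the log2 scale from 0.982 to 0.989. The normalised count of Arid1b averaged 1894 ± 86.6 in HT and 2842 ± 142 in WT mice (SD, 5 mice each), and the groups did not overlap (limma adjusted p = 9.96e-05). HT2 had the highest share of mitochondrial transcripts (8.43% of normalised counts, against 5.15% to 6.76% in the other mice). WT3 had the lowest summed level of myelin genes and of striatum markers.

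The upstream sequence of 3 of the genes is shown, because these genes stand at the extremes of how the group varied between mice: Pdgfra and Bmp4 varied least together, and Enpp6 and Bmp4 had the widest spread. The sequences are from RefSeq windows of GRCm38.p6 (present for Pdgfra, Cspg4, Olig2, Bmp4, Neu4 and Enpp6) and end at the base before the RefSeq start, which for Pdgfra lies upstream of the GENCODE gene start given with the levels. Capitals mark matches to the E-box CANNTG, the kind of element bound by basic helix-loop-helix factors such as OLIG1 and OLIG2, and to ACAAAG or ACAATG, read on both strands, which resemble elements bound by SOX factors such as SOX10.
Pdgfra, chr5:75152001-75152250, plus strand: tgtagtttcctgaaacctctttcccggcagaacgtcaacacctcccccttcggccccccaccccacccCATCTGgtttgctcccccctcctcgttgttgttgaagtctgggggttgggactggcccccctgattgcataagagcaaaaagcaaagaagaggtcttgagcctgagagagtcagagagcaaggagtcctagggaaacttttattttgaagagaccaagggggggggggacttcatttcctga
Enpp6, chr8:46986637-46986886, plus strand: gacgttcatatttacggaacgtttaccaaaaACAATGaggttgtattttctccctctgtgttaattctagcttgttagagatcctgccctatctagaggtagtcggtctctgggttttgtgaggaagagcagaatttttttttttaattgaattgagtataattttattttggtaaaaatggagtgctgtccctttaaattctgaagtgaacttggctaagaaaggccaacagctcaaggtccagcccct
Bmp4, chr14:46390670-46390919, minus strand: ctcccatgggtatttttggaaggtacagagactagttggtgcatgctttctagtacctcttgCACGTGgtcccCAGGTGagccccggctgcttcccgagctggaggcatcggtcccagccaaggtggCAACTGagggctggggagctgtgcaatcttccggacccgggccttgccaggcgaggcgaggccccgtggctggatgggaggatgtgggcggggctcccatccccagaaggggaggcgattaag
The Pdgfra stretch held 1 E-box, the Bmp4 stretch 3 and the Enpp6 stretch 0. An E-box was present in 66.2% of all 32851 windows cut to the same length. ACAATG occurred in the Enpp6 stretch (1 match) and in 10.7% of windows, and ACAAAG in none of the 3 stretches and in 16.5% of windows. A match is a description of letters and not a binding site.

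In the GENCODE annotation of GRCm38 the genes lie at chr5:75152292-75198215 (Pdgfra), chr9:56865033-56899870 (Cspg4), chr16:91269772-91271933 (Olig1), chr16:91225457-91228677 (Olig2), chr15:79154908-79165240 (Sox10), chr18:31942997-31949636 (Gpr17), chr14:46383520-46390669 (Bmp4), chr1:94020451-94028334 (Neu4), chr8:46986887-47096762 (Enpp6) and chr2:170346991-170427845 (Bcas1). Per kilobase of annotated exon, the transcription factor gene Olig1 had the highest level of the 10, at 1566 ± 157 normalised counts per kb (SD, n = 10). Gpr17 followed at 1187 ± 142 and Bcas1 at 872 ± 121 (SD, n = 10), and these 3 lay above the other 7 in every mouse. Sox10 (394 ± 60.9), Olig2 (378 ± 47.9) and Pdgfra (360 ± 46.98) formed a middle tier within which the ranges of neighbours overlapped. Enpp6 (133 ± 25.2), Neu4 (107 ± 12.6), Bmp4 (104 ± 33.9) and Cspg4 (99.0 ± 11.5) were lowest, again with overlapping ranges between neighbours. With the length of the longest transcript in place of all exons, Pdgfra moved from rank 6 to rank 4 and Cspg4 from 10 to 8, and the first 3 ranks stayed the same. Each of the 10 genes had at least 148 normalised counts in every mouse, so the markers of both stages were present in all libraries.

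None of the 10 genes differed between HT and WT mice beyond the spread between mice. Of the 10 genes, 0 had a limma adjusted p under 0.05, as against 0.0179% of the 16781 genes tested, and the smallest adjusted p was 0.54. At an unadjusted p under 0.05 there was 1 of 10, higher in HT (Cspg4), where 9.23% of all genes tested were called, 4.71% as higher and 4.52% as lower. The groups overlapped for each of the 10 genes, against 1.62% of all genes without overlap. The fitted log2 fold change was above 0 for 8 of the 10 genes and below 0 for 2, with a median of 0.15, beside 48.8% of all genes above 0 and a median of 0.00 over all genes tested. Without WT3 the median of the 10 was 0.05, and without HT2 it was 0.09. Without both HT2 and HT5, 6 were above 0 and 4 below (median 0.07), beside 8268 of 16733 genes above 0 in that fit. With a score of the myelin genes as a covariate, 6 were above 0 and 4 below (median 0.02).

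**Figure D1:**
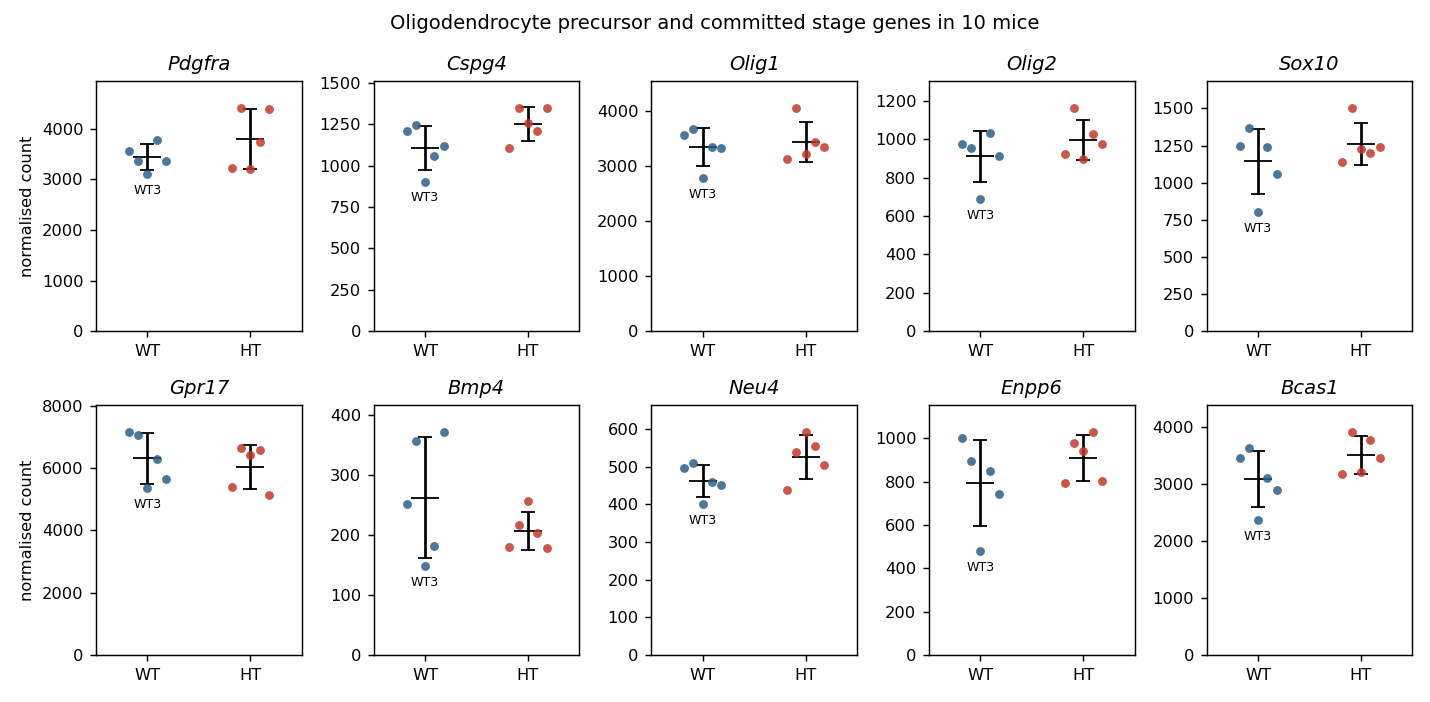
Normalised count of each gene (vertical axis, from 0) in WT (blue) and HT (red) mice, with 1 point per mouse and the mean ± SD (n = 5) as black bars. WT3 is the lowest of all 10 mice for 9 of the 10 genes, and the groups overlap in every panel.

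The precursor receptors were examined first. Pdgfra encodes the receptor for PDGF-AA, the mitogen of oligodendrocyte precursors, and is also expressed by fibroblasts of the meninges. Its normalised counts were 3225, 4410.3, 3193, 3737 and 4387 in HT1 to HT5 and 3567, 3370.4, 3097, 3778 and 3359 in WT1 to WT5. HT2 and HT5 lay above all other mice, while HT1 and HT3 lay below all WT mice except WT3. As a log2 fold change the difference was 0.13 (SE 0.09, 95% interval -0.07 to 0.33, limma adjusted p = 0.64), and without both HT2 and HT5 it was -0.02. The 10 meningeal and fibroblast markers summed to 10954 and 10900 normalised counts in HT2 and HT5, the highest of the 10 mice, and to 7048 to 10677 in the others, and none of these markers was at 0 in any mouse. The part of these cells in the Pdgfra values was not tested.

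Cspg4 encodes NG2, the proteoglycan of precursor cells that pericytes also carry. It had 1105, 1349, 1258, 1211 and 1348 normalised counts in HT1 to HT5 and 1208, 1246, 904, 1059.6 and 1119 in WT1 to WT5. Here 3 of the 5 HT mice lay above the highest WT mouse, and HT1 lay below 3 of the WT mice. The log2 fold change was 0.18 (SE 0.08, 95% interval 0.00 to 0.37, unadjusted p = 0.048), which did not hold over all genes tested (limma adjusted p = 0.54). Without WT3 it was 0.11 with an unadjusted limma p of 0.14. The summed level of 10 pericyte and mural markers was 8994 to 12295 in HT and 9392 to 10229 in WT mice, with the highest value in HT2, and its part in the Cspg4 values was not tested.

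The lineage transcription factors came next. Olig1 and Olig2, neighbouring basic helix-loop-helix genes on chromosome 16 whose starts lie 44.3 kb apart, specify and maintain the lineage, and Sox10 drives its differentiation. Olig1 had 3132, 4055, 3213, 3440.4 and 3338 normalised counts in HT1 to HT5 and 3561, 3674, 2781, 3338 and 3335 in WT1 to WT5. The medians of the groups were 3338 in both, and the log2 fold change was 0.04 (SE 0.08, 95% interval -0.13 to 0.22, limma adjusted p = 0.88). Its sign turned without WT3 (-0.022), without HT2 (-0.019) and without both HT2 and HT5 (-0.028).

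Olig2 had 923, 1165, 900.3, 1026 and 974 normalised counts in HT1 to HT5 and 975, 955, 688, 1031 and 915 in WT1 to WT5. Only HT2 lay above the highest WT mouse, and only WT3 lay below the lowest HT mouse. HT and WT differed by 0.14 on the log2 scale (SE 0.10, limma adjusted p = 0.67), and 0.04 without WT3. Sox10 had 1139, 1504, 1230.3, 1198 and 1240.5 normalised counts in HT1 to HT5 and 1244, 1369.7, 800.2, 1242 and 1059 in WT1 to WT5. HT2 was set apart at the top and WT3 at the bottom, and the other 8 mice spanned 1059 to 1369.7. Sox10 itself differed by 0.16 on this scale (SE 0.12, limma adjusted p = 0.67), and by 0.04 without WT3.

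Among genes of the committed stage, Gpr17 and Bmp4 were the only ones of the 10 with lower fitted means in HT mice. Gpr17 encodes a G-protein-coupled receptor that is switched on in committed precursors and off before myelination. It had 5374, 6636, 6415, 6592 and 5141 normalised counts in HT1 to HT5 and 7168, 7072, 5360.5, 6295 and 5629.9 in WT1 to WT5. WT1 and WT2 lay above all HT mice, and HT5 was the lowest of all 10, the only gene for which the lowest mouse was not WT3. The log2 fold change was -0.06 (SE 0.09, 95% interval -0.27 to 0.14, limma adjusted p = 0.84), and it was -0.01 without HT5 and -0.12 without WT3. The Gpr17 exons overlap those of Lims2 on the opposite strand, and Lims2 had a mean of 384 normalised counts, with a log2 fold change of 0.04. Whether the authors counted reads by strand is not given in the sources used here, so reads of the overlap cannot be told apart. Exons of Pdgfra, Olig1, Bmp4 and Bcas1 overlap annotated antisense or opposite-strand genes as well, which were not analysed here.

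Bmp4 encodes a secreted ligand that committed precursors express and that holds back differentiation when added to precursors. It was the most variable of the 10 genes, with 179.7, 217, 256, 203 and 179 normalised counts in HT1 to HT5 and 251, 357, 148, 181 and 372 in WT1 to WT5. WT2 and WT5 lay far above the remaining 8 mice, which spanned 148 to 256, and the coefficient of variation was 38.5% in WT and 15.4% in HT mice. The arithmetic mean in HT was 0.79 of that in WT mice. The fit compares means of log2 values and gave a log2 fold change of -0.26 (SE 0.22, 95% interval -0.74 to 0.22, limma adjusted p = 0.71). Without WT3 this was -0.44 and without WT5 -0.11, with unadjusted limma p-values of 0.041 and 0.61. The difference in spread between the genotypes was not tested.

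Neu4, Enpp6 and Bcas1 had higher means in HT mice that did not pass the threshold. Neu4, a sialidase gene expressed in the lineage, had 437, 538, 593, 554 and 504 normalised counts in HT1 to HT5 and 496, 509, 402, 458 and 449.8 in WT1 to WT5. HT2, HT3 and HT4 lay above all WT mice, and HT1 below all WT mice except WT3. The log2 fold change was 0.18 (SE 0.09, 95% interval -0.01 to 0.37, limma adjusted p = 0.55), and 0.13 without WT3.

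Enpp6 encodes a choline-specific phosphodiesterase and marks newly forming oligodendrocytes. It had 793, 977, 941, 1031 and 802 normalised counts in HT1 to HT5 and 1000.4, 897, 479, 849 and 745 in WT1 to WT5. WT3 stood at 0.55 of the mean of the other 4 WT mice, and the difference of 0.23 on the log2 scale (SE 0.16, limma adjusted p = 0.64) was 0.06 without it. Bcas1, a marker of early, actively myelinating cells, had 3174, 3916, 3199.9, 3769.8 and 3446.5 normalised counts in HT1 to HT5 and 3444, 3627, 2357, 3096 and 2894 in WT1 to WT5. HT2 and HT4 lay above the highest WT mouse and WT3 below all others. Bcas1 differed by 0.19 on the log2 scale (SE 0.10, 95% interval -0.02 to 0.41, limma adjusted p = 0.57), and 0.10 without WT3.

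**Figure D2:**
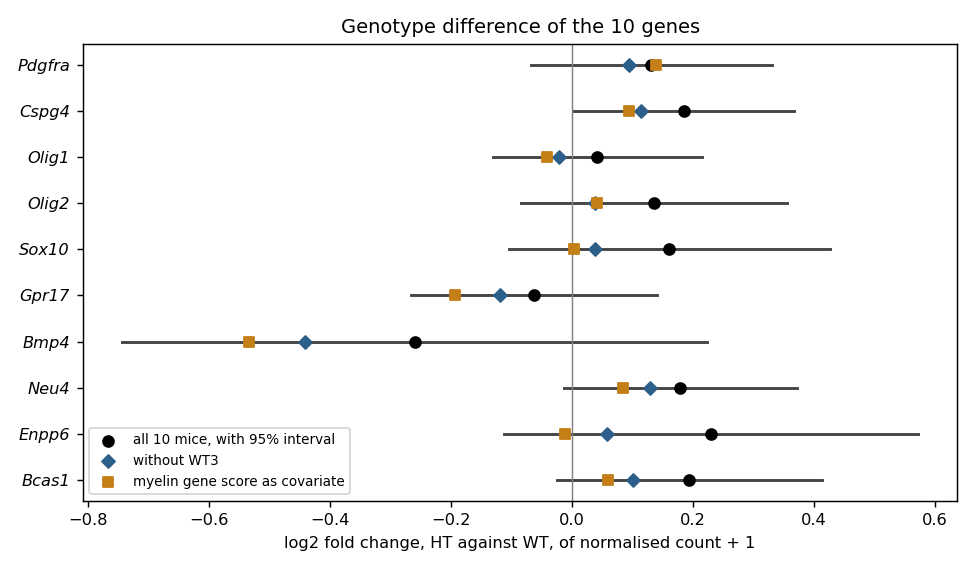
Log2 fold change of HT against WT (horizontal axis) for each gene, with the 95% interval of the fit to all 10 mice (black), the value without WT3 (blue diamonds) and the value with the myelin gene score as a covariate (orange squares). Leaving out WT3 moves every gene to the left, and the intervals of 9 genes include 0, while that of Cspg4 begins at 0.00.

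The intervals bound what these data allow. The largest upper bound among the 10 genes was a 1.49-fold higher level in HT for Enpp6, and the lowest bound was 0.60 of the WT level for Bmp4. For Olig1 and Gpr17 the intervals ran from 0.91 to 1.16 and from 0.83 to 1.103 of the WT level. A p that misses the threshold does not show that the genotypes are alike.

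WT3 was the lowest of the 10 mice for 9 of the 10 genes and among the lowest 2 for all 10. Relative to the mean of the other WT mice it stood at 0.51 for Bmp4, 0.55 for Enpp6, 0.65 for Sox10, 0.71 for Olig2, 0.72 for Bcas1, 0.78 for Cspg4, 0.80 for Olig1, 0.82 for Gpr17, 0.84 for Neu4 and 0.88 for Pdgfra. The precursor receptor Pdgfra was thus the least low in this mouse. HT2 was the highest mouse for 6 of the 10 genes and above the median of the 10 mice for all 10, and HT1 was above the median for 0 genes.

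Other genes of the lineage showed how far this mouse reached. Of 22 myelin and mature oligodendrocyte genes, 21 were lowest in WT3, and their sum was 38960 normalised counts there against 62435 to 102807 in the other mice. Of 12 other committed and newly formed oligodendrocyte genes 8 were lowest in WT3, and of 14 other precursor genes 5. The 12 striatum markers summed to 10947 in WT3, 11310 in WT5 and 12019 in HT5, against 20487 to 30105 in the other 7 mice, with none at 0 in any mouse. WT5 was among the lowest 2 mice for 3 of the 10 genes and above the median for 1, and HT5 was among the lowest 2 for 2 and above the median for 7. Striatal and white matter tissue in the dissections was not tested as a source of these values.

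**Figure D3:**
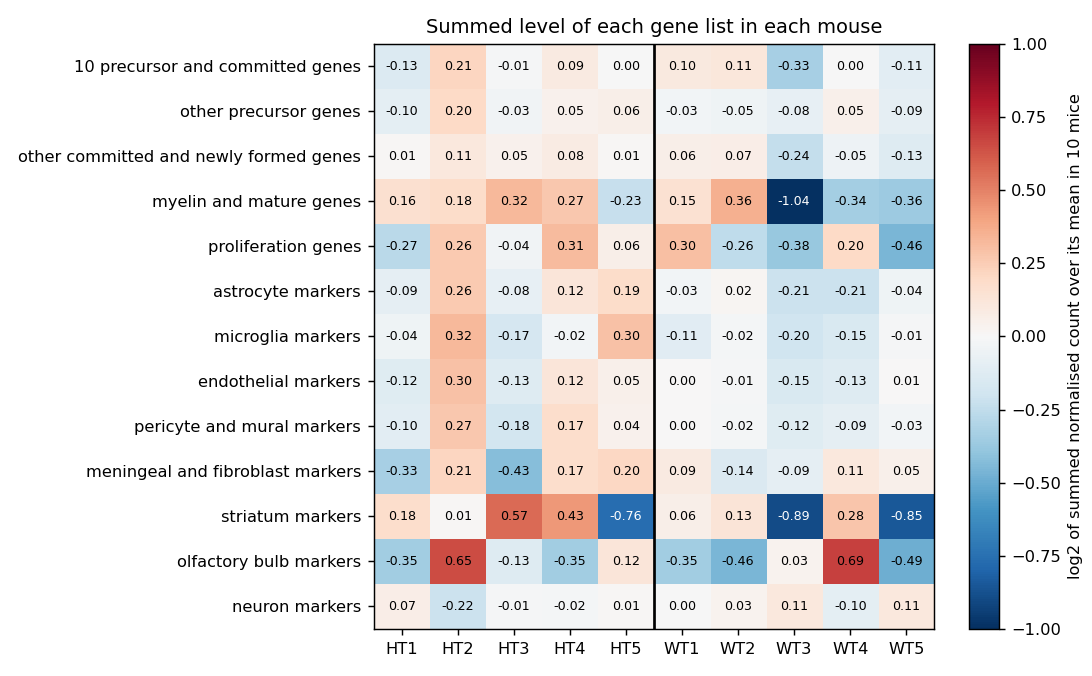
Summed normalised count of each gene list in each mouse, as the log2 of its ratio to the mean over the 10 mice (colour and printed value), with the black line between HT and WT mice. Myelin and mature genes are lowest in WT3, and the striatum markers are low in WT3, WT5 and HT5.

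The genotype comparison of these lists gave 0 genes past the threshold. Among the 14 other precursor genes, 11 were higher and 3 lower in HT (median log2 fold change 0.07), and 2 were higher and 1 lower at an unadjusted p under 0.05. Without HT2 and HT5 the median was 0.01. Emid1 had 1153 ± 105 (SD, n = 5) in HT against 944 ± 56.9 in WT mice, also n = 5, without overlap, with a limma adjusted p of 0.36, and Susd5 497 ± 50.6 and 570 ± 59.4 (SD, n = 5; limma adjusted p = 0.53). Ptprz1, a receptor phosphatase gene, had a log2 fold change of 0.14 (SE 0.09), and Tnr, which encodes tenascin-R, -0.04 (SE 0.05).

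Among 12 other committed and newly formed oligodendrocyte genes, 8 were higher and 4 lower (median 0.10), with 2 higher and 0 lower at an unadjusted p under 0.05. Without WT3, the lowest mouse for 8 of these genes, the median was 0.03. Itpr2, an inositol trisphosphate receptor gene of newly formed cells, averaged 1456 ± 113 in HT and 1244 ± 109 in WT mice (SD, 5 mice each, limma adjusted p = 0.46). Rras2, a small GTPase gene, had a log2 fold change of -0.11 (SE 0.05), Sirt2 0.19 (SE 0.10) and the kinase gene Fyn 0.07 (SE 0.05).

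All 22 myelin and mature oligodendrocyte genes had a higher fitted mean in HT mice (median 0.30), yet 0 had an unadjusted p under 0.05. WT3, the lowest mouse for 21 of these genes, moved this value, and without it 21 of 22 were higher with a median of 0.15. Without HT2 and HT5 all 22 were higher, with a median of 0.45, and 6 had an unadjusted p under 0.05. In that fit 496 of the 16733 genes tested were higher at that p. Mal, which encodes a myelin proteolipid, had the smallest p (log2 fold change 0.52, SE 0.24, limma adjusted p = 0.54). Mbp, which encodes myelin basic protein, had a log2 fold change of 0.44 (SE 0.22). It had 16202 to 45641 normalised counts in WT and 29713 to 43832 in HT mice, so the WT range held the HT range.

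Among 23 transcription regulators of the lineage, 15 were higher and 8 lower (median 0.03, and 0.02 without HT2 and HT5), with 3 higher and 1 lower at an unadjusted p under 0.05. Id4, an inhibitor of basic helix-loop-helix factors that astrocytes also express, averaged 1300 ± 120 in HT and 957 ± 167 in WT mice (SD, 5 mice each, limma adjusted p = 0.36). Zeb2, a SMAD-interacting repressor gene, had a log2 fold change of -0.13 (SE 0.05), and Smarca4, which encodes BRG1, -0.07 (SE 0.06).

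Of 23 ligands, receptors and antagonists of PDGF and BMP signalling, 11 were higher and 12 lower (median 0.00), with 2 higher and 0 lower at an unadjusted p under 0.05. On the log2 scale the BMP receptor gene Bmpr1a differed by 0.12 (SE 0.05, limma adjusted p = 0.51), Pdgfb -0.10 (SE 0.06), Bmpr2 -0.10 (SE 0.06) and Acvr2a -0.03 (SE 0.05). Of 12 proliferation genes 10 were higher and 2 lower (median 0.23, and 0.12 without HT2 and HT5), with 1 higher and 0 lower at an unadjusted p under 0.05. Ccnb1, a mitotic cyclin gene, differed by 0.42 on the log2 scale (SE 0.17, limma adjusted p = 0.51), Bub1 -0.24 (SE 0.26), Mki67 0.24 (SE 0.14) and Top2a 0.08 (SE 0.24).

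Markers of other cell types that moved with the same mice were read beside these lists. The 12 astrocyte markers were all higher in HT (median 0.23) and summed to 170096 to 216970 in HT and 156075 to 183130 in WT mice. At an unadjusted p under 0.05, 8 of these 12 were higher, and without HT2 and HT5 3 were, with a median of 0.08. Over all genes tested, 791 of 16781 were higher at that p, and 496 of 16733 without HT2 and HT5. The 12 microglia markers were also all higher (median 0.17), with sums of 12344 to 17332 in HT and 12094 to 13793 in WT mice. At an unadjusted p under 0.05, 4 of these 12 were higher, and without HT2 and HT5 there were 0, with 7 of 12 higher and a median of 0.03. HT2 and HT5 had the highest sums of both lists. The 12 endothelial markers were higher in 9 cases (median 0.09), the 12 olfactory bulb markers in 11 (median 0.39), the 12 striatum markers in 11 (median 0.37), the 10 pericyte and mural markers in 10 (median 0.10), the 10 meningeal and fibroblast markers in 6 (median 0.02) and the 12 neuron markers in 4 (median -0.07). At an unadjusted p under 0.05, 3 neuron markers were lower, and 2 pericyte and mural markers, 1 endothelial marker and 1 meningeal and fibroblast marker were higher, with 0 in the striatum and olfactory bulb lists. Single mice moved these medians. Without HT2 the endothelial median was 0.01 with 6 of 12 higher, the pericyte and mural median 0.05, the olfactory bulb median 0.12, the microglia median 0.10, the neuron median -0.04 and the meningeal and fibroblast median -0.04. Without WT3 the striatum median was 0.17, the endothelial median 0.06 and the meningeal and fibroblast median 0.05, and without HT5 the striatum median was 0.68 and the meningeal and fibroblast median -0.10. Without both HT2 and HT5 the striatum list had a median of 0.82 with 7 of 12 higher at that p, the meningeal and fibroblast list a median of -0.25 with 4 of 10 lower, and the olfactory bulb list a median of -0.03. Of the 16733 genes tested in that fit, 496 were higher and 512 lower at that p. Of these 8 lists 0 genes passed adjustment, and no marker was at 0 in any mouse. Their part in the values of the 10 genes was not tested.

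The next question was whether the 10 genes varied together between mice of the same genotype. After the genotype means were taken off on the log2 scale, 44 of the 45 pairs of genes had a positive Pearson r, with a median of 0.70 (median Spearman rho 0.66, n = 10 mice). By exact two-sided permutation within genotypes, 20 pairs passed a threshold of 0.05 after adjustment over the 45 pairs, all positive. At an unadjusted exact p under 0.05 there were 27 of 45 pairs, where 5.13% of pairs of one of the 10 genes with any other gene tested had such a p and a positive r. The lowest r among the pairs that passed was 0.70, the same as the median of the 45 pairs, and a level reached by 3.63% of pairs with other genes. This r does not divide the pairs that passed from the others. Olig2 with Enpp6 had r = 0.83 (adjusted exact permutation p = 0.053) and Cspg4 with Enpp6 r = 0.75 (adjusted exact permutation p = 0.065). Cspg4 with Olig2 had r = 0.70 (adjusted exact permutation p = 0.090). All pairs share the same 10 libraries, and with them the cell composition, tissue content and depth of each.

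This relation rested in large part on WT3. Without it, the median r was 0.50, 8 pairs had an unadjusted exact p under 0.05, and 2 pairs passed adjustment, both of which also passed with all mice. The share of pairs with other genes called without WT3 was not computed. Leaving out any mouse also leaves fewer arrangements, so these counts of calls are not on the same footing as those with all mice. The number of adjusted calls also fell to 2 without HT1, 8 without HT2, 1 without WT1, 11 without WT2 and 10 without WT5, but the median r then stayed between 0.68 and 0.75. When the 2 mice farthest from the median of the first gene of each pair were left out, the median r over the 45 pairs was 0.59. With HT2 and WT3 out in this way, r fell from 0.90 to 0.32 for Olig2 with Sox10, from 0.90 to 0.39 for Olig1 with Olig2 and from 0.87 to 0.53 for Olig2 with Bcas1, over the 8 mice that remained. The range of the first gene is narrower by construction when its extremes are left out.

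The 2 pairs that passed with and without WT3 were Olig1 with Bcas1 and Gpr17 with Enpp6. For Olig1 and Bcas1, r was 0.92 and rho 0.95, each with an exact permutation p of 6.94e-05, the smallest that 5 against 5 mice can give (adjusted 0.0031), while r was 0.96 without HT2 and WT3, the 2 mice farthest from the Olig1 median. For Gpr17 and Enpp6, r was 0.85 (exact permutation p = 0.00028, adjusted 0.00625) and rho 0.93 (exact permutation p = 0.00083, adjusted 0.019), and r was 0.95 without HT5 and WT3. These r values were computed after genotype means were taken off. In the plot of Enpp6 against Gpr17, HT points lay above WT points of similar Gpr17 level. HT3 had 6415 for Gpr17 and 941 for Enpp6, against 6295 and 849 in WT4. HT1 had 5374 and 793, against 5630 and 745 in WT5. WT3, at 5360 and 479, had the lowest Enpp6 value, and the offset between genotypes was not tested.

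Pdgfra was in 1 of the 20 pairs that passed, that with Olig2 (r = 0.70, exact permutation p = 0.0065, adjusted 0.026, rho = 0.77, exact permutation p = 0.0084, adjusted 0.029), and r was 0.85 without HT2 and HT5. Its median r over its 9 pairs was 0.56 with all mice and 0.50 without WT3, and without HT2 and HT5 its r was 0.71 with Enpp6 and 0.67 with Bcas1. With Gpr17 its r was 0.16 (rho = 0.28, exact permutation p = 0.66 for r and 0.39 for rho, adjusted 0.69 and 0.42), and 0.52 without HT5, against -0.01 to 0.32 without any other single mouse. Without HT2 and HT5, the 2 mice farthest from the Pdgfra median, it was 0.55. HT5 combined the second highest Pdgfra value with the lowest Gpr17 value, so that its ratio of Gpr17 to Pdgfra was 1.17, against 1.505 to 2.01 in the other HT mice and 1.67 to 2.10 in WT mice. Over the groups this ratio averaged 1.62 ± 0.31 in HT and 1.84 ± 0.20 in WT mice (SD, 5 mice each), with overlapping ranges. Bmp4 was in 0 of the 20 pairs, with r of -0.07 to 0.68, and its r with Pdgfra was the only one below 0.

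**Figure D4:**
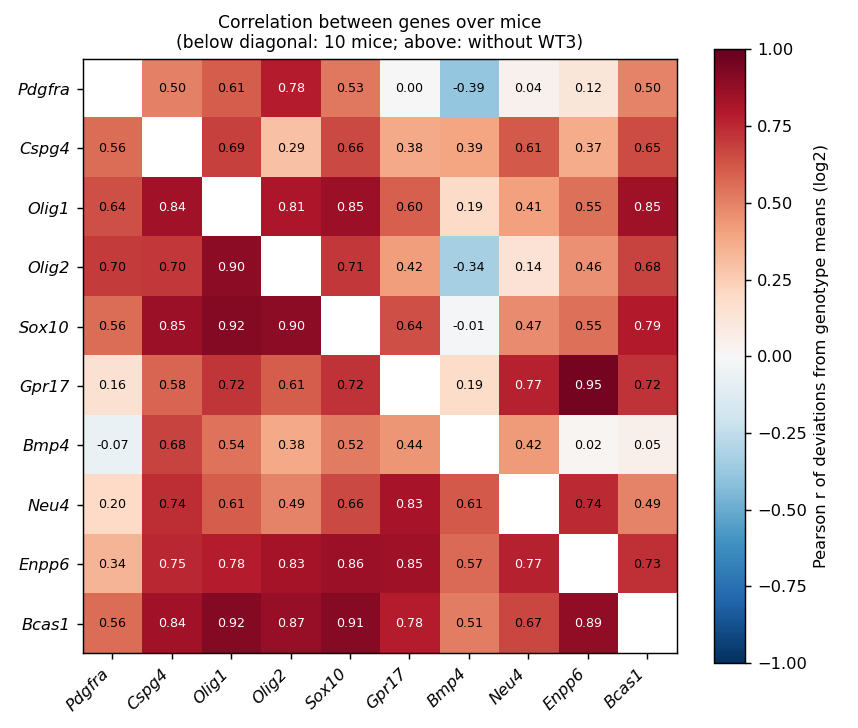
Pearson r between the 10 genes over mice, computed from log2 values after the genotype means were taken off, with all 10 mice below the diagonal and without WT3 above it. Among Olig1, Olig2, Sox10 and Bcas1, r lies between 0.68 and 0.85 without WT3, and is as low as 0.32 when HT2 is left out too, which is not drawn. The values of Bmp4 without WT3 run from -0.39 to 0.42.

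**Figure D5:**
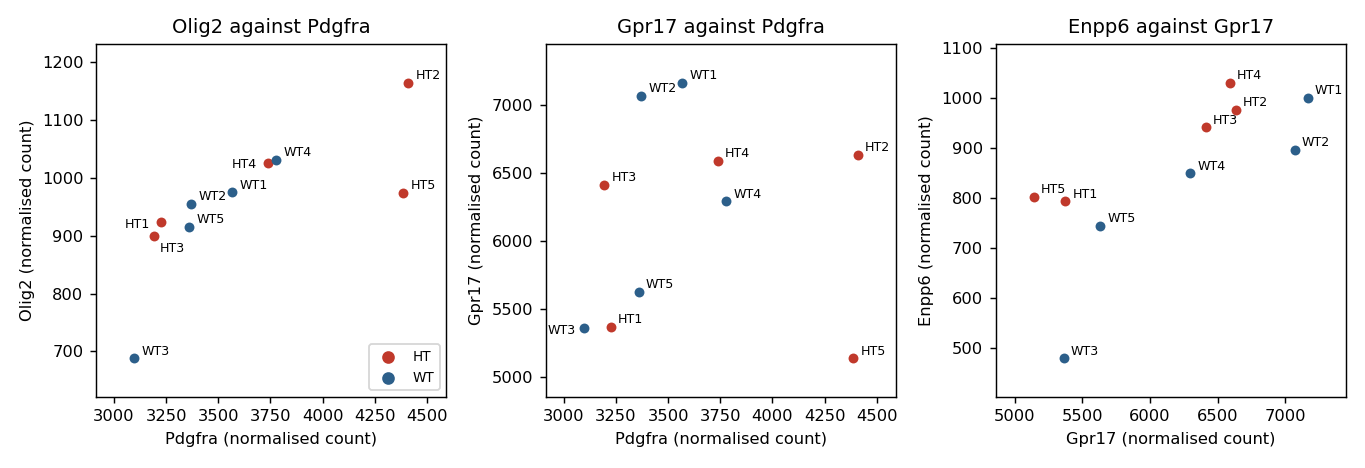
Normalised counts of 3 pairs of genes, with 1 point per mouse (HT red, WT blue). Olig2 rises with Pdgfra except that HT5 lies to the right, Gpr17 shows no such order with Pdgfra (r = 0.16), and Enpp6 rises with Gpr17 (r = 0.85) with WT3 at 479. Each r is from log2 values after the genotype means were taken off, and not from the points as drawn.

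The genes outside the group whose pattern over mice was most like the mean pattern of the 10 were Micall1, Llgl1, Slc44a1, Prkcq and Plat. Their Pearson r with the mean of the 10 standardised genes, after genotype means were taken off, was 0.97, 0.96, 0.95, 0.94 and 0.94 over 10 mice, and 0.93, 0.88, 0.87, 0.84 and 0.88 without WT3. These values describe a ranking over all genes tested and carry no test. The 5 genes had log2 fold changes of -0.08 to 0.22 between the genotypes, and none passed the threshold (smallest limma adjusted p = 0.53).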

How the data were processed

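The title of each sample gave its genotype and replicate number. As stated by the authors, Salmon 1.1.0 was run against GRCm38 with GC bias correction, tximport summed the estimates per gene, and DESeq2 1.30.1 size factors were applied, so the deposited values are a normalised signal per gene. At most 21.2% of values under 20 were whole multiples of 1 step (tolerance 0.02), so reads were not recovered and no count test was run. Because values are relative to all genes, a change in total RNA would not be seen.

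Symbols and positions were taken from GENCODE M21 (GRCm38; 18205 of 18216 identifiers found). Values were transformed as log2(value + 1), which understates changes of low genes, and limma 3.58.1 (R 4.3.3) was fitted to the 16781 genes whose mean reached 10, all 10 members among them (mean-variance trend, genotype only), with Benjamini-Hochberg adjustment over all genes. Pairs of members were compared by exact permutation within genotypes in Python 3.11.15. Named genes of other lists were those with the smallest p in each direction and the 2 with the highest mean, of which 1 is not reported here. Members and lists were chosen with earlier results of these data known. Alternatives were other pseudocounts, filters, scalings, variance models, weights, covariates and subsets of mice. Gene lists without WT3, HT2 or HT5 were refitted as an alternative chosen after seeing the data. The limma and permutation steps were tested on simulated data. Replicate numbers were not taken to pair the mice. The correlations of the deviations of same-numbered mice were -0.04 to 0.10 (5 pairs, mean 0.04). Those of different-numbered mice were -0.14 to 0.21 (20 pairs, mean -0.01). Whether same-numbered mice share a litter or batch cannot be told from the labels.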

Additional observations from a re-analysis of the deposited data

Results flagged for a closer look

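Among 68 groups of 5 mice, covering each gene, the ratios between genes and the list sums, 1 held a mouse set apart from the others by more than 0.71 of the group's range, where chance gives about 3.4. This was Sox10 in HT2, which had 1504 normalised counts where HT1, HT3, HT4 and HT5 had 1139 to 1240.5 (gap of 0.72 of the range).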

How the results depend on the processing

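Arid1b passed the threshold and was lower in HT in each of the 22 alternatives fitted (log2 fold change -0.61 to -0.56). In these fits 3 or 4 genes passed, and 0 of the 10 members. Direction depended on the setting for 3 members. Olig1 was -0.012 with sample quality weights, -0.042 with the myelin score as a covariate, -0.028 without HT2 and HT5, and -0.022 to 0.078 when 1 mouse was left out (below 0 without WT3 and without HT2). Enpp6 was -0.011 with the myelin score, and Pdgfra -0.022 without HT2 and HT5. With the myelin score, Gpr17 and Bmp4 had log2 fold changes of -0.19 and -0.53 (unadjusted p of the limma model fitted across all genes = 0.017 and 0.015, smallest adjusted p among the 10 members 0.59). These were 2 of the 10 members, and the share of all genes at an unadjusted p under 0.05 in this fit was not computed. The score is the mean z-score of the 22 myelin and mature genes. It belongs to the same lineage, so this fit also takes off variation that the members share with those genes. With the striatum marker score as a covariate, Enpp6 was 0.13 and Gpr17 -0.13. With the replicate number as a block, 3 genes and 0 members passed, and no call at the adjusted threshold changed. The block lowered the SE of Bcas1 from 0.10 to 0.07 and its unadjusted limma p from 0.078 to 0.024. It lowered the SE of the other members too, except for Bmp4 and Neu4, where the SE rose. The number of member pairs past the threshold ranged from 1 to 26 when 1 mouse was left out, and was 17 to 23 under the other alternatives. The causes were not tested. Depth is unknown, so counting error could not be separated from the spread between mice.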
